A study of Homo sapiens with 6 samples.

Results

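The genes described here build or regulate the contractile actin filament that marks smooth muscle and the myoepithelial cells of the breast. They are the actins ACTA2 and ACTG2, the tropomyosins TPM1 and TPM2, transgelin (TAGLN), the calponins CNN1 and CNN2, caldesmon (CALD1), the myosin regulatory light chain MYL9 and its kinase MYLK. All 10 genes were taken by symbol from an array table with 81496 gene symbols, and each of them is read by 1 probe set. The arrays compared MCF10.AT1 with MCF10.AT1-R. MCF10.AT1 is a preneoplastic human breast epithelial line of the MCF10A series that carries an activated HRAS gene, and its cells were left untreated and are sensitive to fluvastatin, an inhibitor of HMG-CoA reductase. MCF10.AT1-R is the resistant line selected from it in fluvastatin at 1 µM, then 5 µM and up to 20 µM. Each line is 1 derivation, so a difference between the lines cannot be told apart from a difference between these 2 cultures, and the labels do not say whether fluvastatin was present when RNA was taken. Total RNA was hybridised to Clariom D arrays, with 3 arrays labelled as replicates for each line, which the study describes as biological.

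In a contractile cell, calcium-bound calmodulin activates MYLK, MYLK phosphorylates the light chain MYL9, and myosin then pulls on filaments of smooth muscle actin. Tropomyosins lie along the actin filament, and caldesmon and calponin bind it and hold back the myosin ATPase, while transgelin cross-links actin. CNN2 and TPM1 are also made in many non-muscle cells, where they occur in stress fibres, whereas ACTA2 and CNN1 are used by pathologists to stain the myoepithelial layer around breast ducts. Many genes of the group are driven by serum response factor (SRF), which binds a sequence called the CArG box.

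The sequences before the start sites of 5 of the genes are shown because this box is what the group is best known to share. They are from RefSeq, build GRCh38.p14, and give the 150 bases before 1 annotated start of each gene, 5′ to 3′ in the direction of the gene. Where several annotated starts of a gene were searched, the one with the most boxes is shown. This applies to ACTA2, whose other start searched held none. Whether the start shown is the main one of the gene was not tested. Capitals mark CArG boxes, including those with 1 base other than A or T among the 6 central ones. ACTG2 (chr2:73892858-73893007, plus strand) and ACTA2 (chr10:88952774-88952923, minus strand) hold 2 boxes each. CNN2 (chr19:1026458-1026607, plus strand) and MYLK (chr3:123620549-123620698, minus strand) hold 1 each, and TPM1 (chr15:63048339-63048488, plus strand) holds none.
ACTG2: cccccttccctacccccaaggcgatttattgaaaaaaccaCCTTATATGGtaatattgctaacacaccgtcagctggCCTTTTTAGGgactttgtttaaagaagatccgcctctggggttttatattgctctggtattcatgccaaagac
ACTA2: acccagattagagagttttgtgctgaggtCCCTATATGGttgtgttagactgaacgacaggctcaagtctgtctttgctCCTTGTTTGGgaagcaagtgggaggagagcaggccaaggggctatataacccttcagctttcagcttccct
CNN2: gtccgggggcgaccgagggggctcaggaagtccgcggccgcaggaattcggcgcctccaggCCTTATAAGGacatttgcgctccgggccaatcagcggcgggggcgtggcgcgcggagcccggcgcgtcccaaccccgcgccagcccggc
MYLK: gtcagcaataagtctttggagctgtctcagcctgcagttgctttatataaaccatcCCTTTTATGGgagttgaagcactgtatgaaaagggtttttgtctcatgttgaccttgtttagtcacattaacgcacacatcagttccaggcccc
TPM1: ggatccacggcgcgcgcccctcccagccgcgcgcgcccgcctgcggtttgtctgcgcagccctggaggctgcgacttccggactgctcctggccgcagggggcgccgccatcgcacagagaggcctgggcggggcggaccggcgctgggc

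The search covered windows of 250 bases before to 50 after each start, and the box reads the same on both strands. Windows were found for 8 of the 10 genes, 13 windows in all, and TAGLN and MYL9 were not matched. An exact box, with only A or T in the centre, was in 3 of the 13 windows, those of ACTG2, CNN2 and MYLK. It was in 1.29% of all 35116 windows. With 1 other base allowed in the centre, 5 of the 13 windows held a box, against 8.13% of all windows. This added ACTA2 and CALD1, each by only 1 of its windows. On the arrays described below, 1 gene with the exact box had its arrays higher in MCF10.AT1-R (CNN2) and 1 had them lower (MYLK). The arrays of the remaining one, ACTG2, overlapped. TPM1 had no box in the only window searched for it, and MYLK also had only 1 window. Other starts of these genes were not searched. Whether the probe sets read transcripts from the starts searched was not tested.

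For every probe set the authors deposited a log2 intensity on each array, made by RMA, which corrects background, brings the arrays to a common distribution and summarises the probes. Arrays whose names start with A (A01, A02, A03) hold MCF10.AT1, and those starting with B (B02, B03, B04) hold MCF10.AT1-R. A03 was removed by the study as an outlier and correlated with the other arrays at 0.779 to 0.795, against 0.967 to 0.977 among these, so it is given apart and enters no comparison below unless named. The number of arrays, 2 against 3, limits the precision. All values below are on the log2 scale, and a difference is MCF10.AT1-R minus MCF10.AT1. Differences were tested with limma over 51457 probe sets left after filters on low and invariant values, and called at a false discovery rate (FDR) of 5% after Benjamini-Hochberg adjustment. All 10 genes lay above 2.99, the 95th percentile of the negative control probe sets, on each of the 5 arrays. ACTG2 was removed as invariant, so 9 of the 10 genes were tested.

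Of the 9 genes tested, 2 passed FDR 5%, TAGLN and TPM1, and both were higher in MCF10.AT1-R. None was called lower (1 of the 9, MYLK, at an unadjusted p under 0.05 in limma). Over all probe sets tested 0.758% were called higher, 0.447% lower and 1.20% in either direction. Every B array was above A01 and A02 for 6 genes (TAGLN, TPM1, MYL9, CNN2, ACTA2 and CALD1) and below them for 2 (MYLK and TPM2), against 12.9% and 13.8% of all probe sets tested, or 26.7% in either direction. The arrays overlapped for ACTG2 and CNN1. The shares over all probe sets tested, here and below, take in means down to 1.88 and were not matched for expression level. The median difference of the 9 genes tested was 0.47 (0.40 with ACTG2), beside -0.02 over all 35766 symbols tested.

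**Figure D1:**
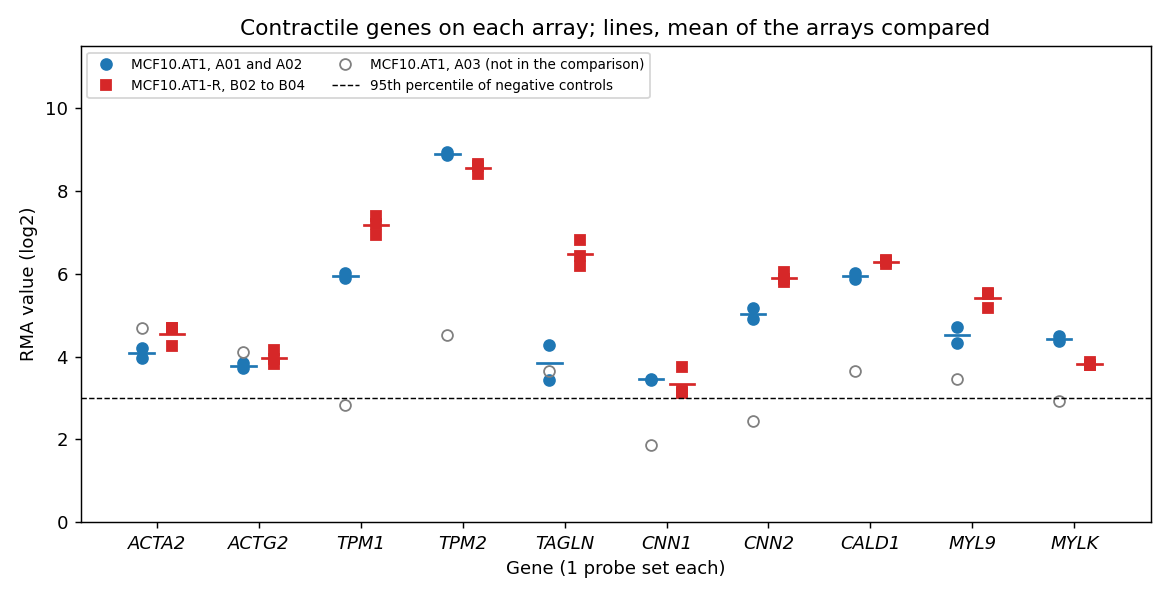
RMA value (log2) of each of the 10 genes on each array, with filled circles for A01 and A02 of MCF10.AT1, squares for B02, B03 and B04 of MCF10.AT1-R, open circles for A03, short lines for the means of the arrays compared and a dashed line at 2.99, the 95th percentile of the negative controls. TAGLN shows the widest gap between the lines, MYLK and TPM2 are the genes with every MCF10.AT1-R array below A01 and A02, and A03 lies below both of these for 7 of the 10 genes.

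TAGLN (probe set TC1100009169.hg.1), which encodes the actin cross-linker transgelin, changed the most. It read 4.27 on A01 and 3.43 on A02, against 6.18 on B02, 6.43 on B03 and 6.80 on B04. The lowest MCF10.AT1-R array was 1.91 above the highest MCF10.AT1 array, although A01 and A02 themselves differed by 0.84. Its mean of 3.85 ± 0.60 (SD, n = 2) in MCF10.AT1 rose to 6.47 ± 0.31 (SD, n = 3), by 2.62 on the log2 scale or 6.15-fold (standard error 0.31, adjusted p = 4.93e-14 from limma). Of all probe sets tested, 0.0855% changed by as much or more in either direction. With the filter on invariant probe sets in place, limma's estimate of the spread was 1 common SD of 0.34 for every gene, and the residual SD of TAGLN was 0.43, the only one of the 10 genes above it. Without any filter the adjusted p of TAGLN was 0.0182, and over its alternatives it ranged from 7.02e-24 to 0.0792. It missed the threshold in 2 of them, with A03 added (0.0792) and with a floor at the negative controls (0.0644).

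TPM1 (TC1500007510.hg.1), a tropomyosin of muscle and of stress fibres, read 6.02 on A01 and 5.89 on A02, against 7.21 on B02, 6.94 on B03 and 7.39 on B04. The lines did not overlap. Its mean of 5.95 ± 0.09 (SD, n = 2) in MCF10.AT1 rose to 7.18 ± 0.23 (SD, n = 3), by 1.22 on the log2 scale or 2.33-fold (standard error 0.31, adjusted p = 0.0116 from limma). This call rests on single arrays and on the filter: the adjusted p from limma was 0.161 without A01, 0.349 without A02, 0.0897 without B04 and 0.127 without any filter, in a range of 2.37e-08 to 0.777 over its alternatives. TPM2 (TC0900009949.hg.1), the other tropomyosin of the group, read 8.93 on A01 and 8.86 on A02, against 8.60 on B02, 8.40 on B03 and 8.66 on B04. Every MCF10.AT1-R array was therefore lower, by a mean of 1.27-fold, and the log2 difference of -0.34 did not pass the test (95% interval -0.95 to 0.27, adjusted p = 0.834 from limma).

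The tropomyosins had opposite signs, and the difference of their changes was computed on each array as the TPM1 value minus the TPM2 value. Only the change of this quantity can be read, since levels of different probe sets are not comparable. It went from -2.94 ± 0.04 (SD, n = 2) on the A arrays to -1.38 ± 0.10 (SD, n = 3) on the B arrays, so that TPM1 changed by 1.56 more than TPM2. The exact two-sided permutation test gave p = 0.1, which is the smallest that 2 arrays against 3 allow, and 0.3 after adjustment over the 3 pairs of relatives compared.

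CNN2 (TC1900006507.hg.1), the calponin of non-muscle cells, read 5.17 on A01 and 4.91 on A02, against 5.88 on B02, 5.81 on B03 and 6.03 on B04. The lines did not overlap, and the log2 difference of 0.87 or 1.83-fold (95% interval 0.26 to 1.48) did not pass FDR 5% (adjusted p = 0.212 from limma). Pseudogenes of CNN2 can share probe sequence with it, which makes its value less certain. CNN1 (TC1900007040.hg.1), the calponin of smooth muscle and myoepithelium, read 3.47 on A01 and 3.43 on A02, inside the span of 3.76 on B02, 3.17 on B03 and 3.12 on B04. Its difference of -0.10 had a 95% interval of -0.71 to 0.51 (adjusted p = 0.943 from limma), and its sign turned without B04 (0.013) and with A03 added (0.43). CNN1 thus changed by 0.97 less than CNN2, with an exact two-sided permutation p of 0.2 and 0.3 after adjustment over the 3 pairs.

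CALD1 (TC0700009236.hg.1), which encodes caldesmon, read 6.03 on A01 and 5.88 on A02, against 6.24 on B02, 6.30 on B03 and 6.33 on B04. The arrays did not overlap, but the step was small. The log2 difference of 0.34 (95% interval -0.27 to 0.95) was far from the threshold (adjusted p = 0.835 from limma).

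MYL9 (TC2000007251.hg.1), the regulatory light chain that myosin needs for contraction, read 4.32 on A01 and 4.71 on A02, against 5.17 on B02, 5.55 on B03 and 5.50 on B04. All MCF10.AT1-R arrays were higher, by a mean log2 difference of 0.90 or 1.86-fold (95% interval 0.29 to 1.51), which did not pass FDR 5% (adjusted p = 0.179 from limma). MYLK (TC0300012212.hg.1), the kinase of that light chain, went the other way. It read 4.49 on A01 and 4.38 on A02, against 3.87 on B02, 3.81 on B03 and 3.79 on B04. The arrays of each line lay close together and did not overlap, and the log2 difference of -0.62, or 1.53-fold lower, was the lowest of the 10 genes, with a 95% interval of -1.23 to -0.0045 and an adjusted p of 0.597 from limma. Its residual SD of 0.06 was far below the common SD that the test used.

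The smooth muscle actins moved little. ACTA2 (TC1000011370.hg.1), the actin by which myoepithelial cells are usually stained, read 4.21 on A01 and 3.96 on A02, against 4.70 on B02, 4.26 on B03 and 4.69 on B04. The lowest MCF10.AT1-R array lay just above A01, and the difference of 0.47 (95% interval -0.14 to 1.08) did not pass (adjusted p = 0.77 from limma). ACTG2 (TC0200008062.hg.1), the actin of visceral smooth muscle, read 3.84 on A01 and 3.73 on A02, within reach of 3.82 on B02, 3.95 on B03 and 4.15 on B04. The lines overlapped, and in limma without a filter the difference was 0.19 (95% interval -0.26 to 0.63, adjusted p = 0.901). ACTA2 changed by 0.28 more than ACTG2, with an exact two-sided permutation p of 0.3, also after adjustment over the 3 pairs. The actin genes are close in sequence, so probes may not fully separate them.

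**Figure D2:**
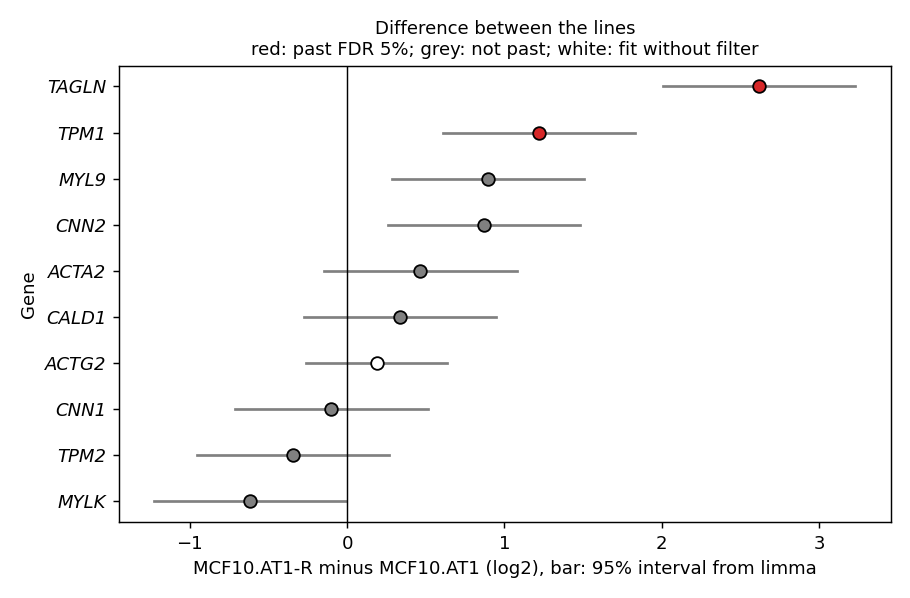
Difference between MCF10.AT1-R and MCF10.AT1 (log2) for each of the 10 genes, ordered by size, with bars for the 95% interval from limma, which is of the same width for the 9 genes tested because they share 1 SD. TAGLN at 2.62 and TPM1 at 1.22 passed FDR 5% (red), the intervals of MYL9, CNN2 and MYLK also leave out 0 without passing after adjustment (grey), and ACTG2 (white) comes from the fit without a filter.

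How the spread was modelled decided MYL9 and CNN2. When the variance was allowed to follow the expression level (limma's trend option), CNN2 (adjusted p = 0.0143) and MYL9 (adjusted p = 0.0275) passed beside TAGLN and TPM1, which made 4 of the 9 genes, whereas 2.68% of all probe sets tested were called. Over the 5 arrays, B04 held the highest MCF10.AT1-R value for 6 of the 10 genes, and A01 lay above A02 for 9 of them, the exception being MYL9. On A03, CNN2 read 2.43, TPM1 2.84, MYLK 2.92 and CNN1 1.86, all 4 under the limit of the negative controls, and TPM2 read 4.51. ACTA2 at 4.70 and ACTG2 at 4.10 were the genes above both other MCF10.AT1 arrays there. The TAGLN value of 3.65 on A03 lay between A01 and A02.

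The profile over the 5 arrays was compared between TAGLN and the other 35765 symbols tested, as the root mean square distance after each profile was centred on its own mean. Closest were UCA1, a long noncoding RNA, at 0.22, RP11-408H20.1, a transcript known by its clone name, at 0.25, and CXCL16, a chemokine, at 0.26. UCA1 read 2.23 on A01 and 1.93 on A02, both within the negative controls, against 4.78 on B02, 4.84 on B03 and 5.16 on B04. With MCF10.AT1 set at the limit of the negative controls its log2 difference was at least 1.94. CXCL16 read 5.18 and 5.06 in MCF10.AT1 against 7.54, 7.46 and 7.82 in MCF10.AT1-R, a log2 difference of 2.48 (adjusted p = 1.54e-12 from limma). The distance is a description over arrays in 2 groups, so that a difference between the lines of like size is enough to make it short.

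**Figure D3:**
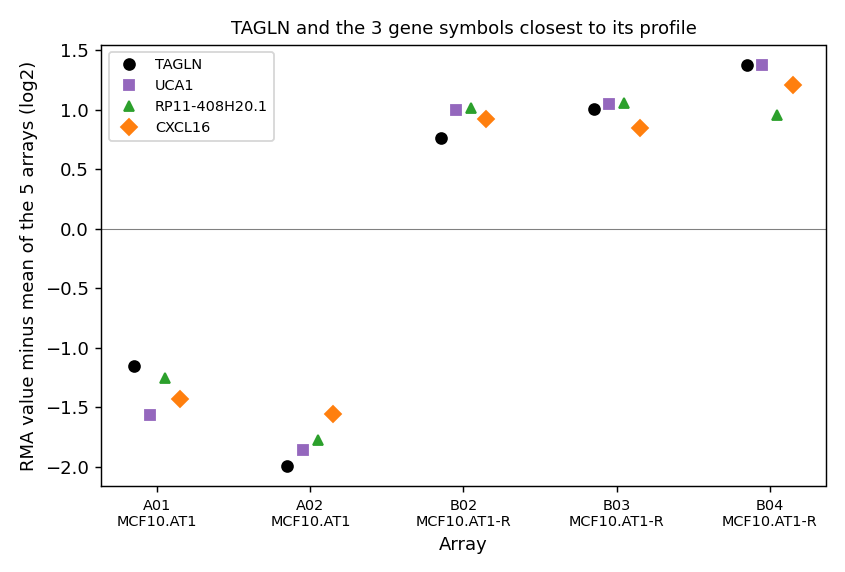
RMA value of TAGLN, UCA1, RP11-408H20.1 and CXCL16 on each of the 5 arrays compared, minus the mean of the gene over these arrays (log2). The 4 genes are low on A01 and A02 and high on B02, B03 and B04, and TAGLN has the widest gap between A01 and A02.

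Actin filaments also hold other actins, myosins, tropomyosins and cross-linkers, some made in all cells and some in muscle. Of 26 such partners, 17 were left after the filters, and 0 passed FDR 5% in limma (3 at an unadjusted p under 0.05). Every B array was above A01 and A02 for 11 of the 17 and below them for 0, against 12.9% and 13.8% of all probe sets tested. These shares were not matched for expression level, and many of the partners have high values. The median difference of the 17 partners was 0.34, beside -0.02 over all symbols tested. The filter on invariant probe sets takes out genes with small differences, and over all 26 partners the arrays were all higher for 14 and all lower for 2, MYH10 (-0.23) and MYL6B (-0.17), with a median of 0.22. With the trend option 8 of the 17 passed, all higher. MYH9, the heavy chain of non-muscle myosin IIA, differed the most among them. It read 8.16 on A01 and 8.21 on A02, against 9.02 on B02, 8.90 on B03 and 9.18 on B04, a log2 difference of 0.85 (adjusted p = 0.236 from limma, and 3.14e-11 with the trend option). CNN3, the remaining calponin, and the cytoplasmic actins ACTB and ACTG1, all 3 picked after their values were seen, differed by 0.79, 0.59 and 0.50 without arrays overlapping, and none of them passed (adjusted p = 0.322, 0.636 and 0.744 from limma).

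SRF acts with the cofactors MRTFA and MRTFB, listed here under their older names MKL1 and MKL2, which actin itself holds inactive in the cytoplasm. Of 18 such regulators and target genes outside the group, 10 were tested, and 2 passed FDR 5%, LIMA1 and CSRP2, both higher in MCF10.AT1-R. Of all probe sets tested, 0.758% were called higher. LIMA1, which encodes the actin-bundling protein EPLIN, read 7.27 and 7.15 on the A arrays against 8.62, 8.62 and 8.80 on the B arrays and rose by 1.47 (adjusted p = 0.000537 from limma). CSRP2, a LIM-domain protein, read 6.94 and 7.05 against 8.33, 8.15 and 8.15 and rose by 1.22 (adjusted p = 0.0123 from limma). SRF itself differed by 0.14, and MKL1 and MKL2, both removed as invariant, by 0.18 and -0.07 in limma without a filter. The median of the 10 genes was 0.13. Every B array was above A01 and A02 for 4 of them and below for 1, EGR1 (-0.30), against 12.9% and 13.8% of all probe sets tested. Of the 2 calls, both were lost without A02, and 1 of the 10 genes passed without A01 or without B02.

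**Figure D4:**
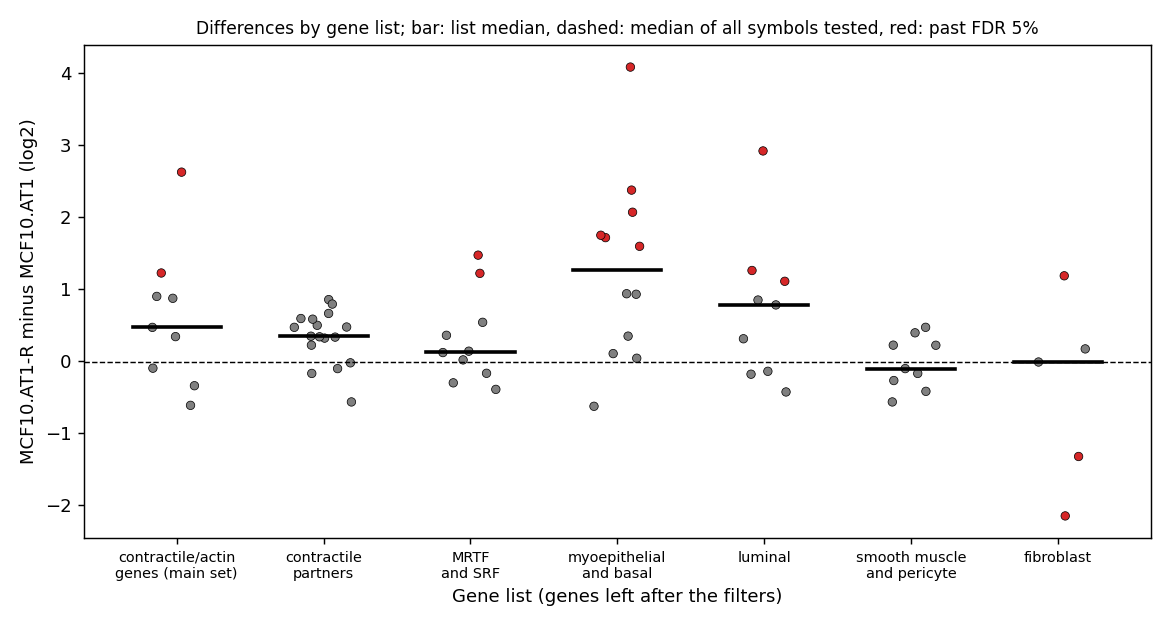
Difference between MCF10.AT1-R and MCF10.AT1 (log2) of the genes left after the filters in each list, with bars for the list medians, a dashed line for the median of all symbols tested and red for genes past FDR 5%. The main set holds TAGLN and TPM1 as calls, the contractile partners lie mostly above the dashed line without a call, and the myoepithelial and basal list has the highest median, 1.26.

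Markers of the cell types that use these genes were read on the same arrays. Beside the counts that follow, 0.758% of all probe sets tested were called higher and 0.447% lower. Of 14 other myoepithelial and basal markers 12 were tested and 6 passed FDR 5%, all higher in MCF10.AT1-R. They were the basal keratins KRT5, KRT14 and KRT17, the transcription factor TP63 and the laminin chains LAMA3 and LAMB3, with log2 differences of 1.71, 2.37, 4.08, 1.74, 2.06 and 1.59. OXTR and NGFR, myoepithelial receptors, differed by 0.04 and 0.10, and on all 5 arrays MME and SPARC lay under the limit of the negative controls. ITGB4, CDH3 and ITGA6 differed by 0.93, 0.93 and 0.35 with every B array above A01 and A02, and did not pass FDR 5%. CAV1, removed as invariant, differed by 0.01 in limma without a filter. Of 10 luminal markers 9 were tested and KRT8, KRT19 and MUC1 rose, by 1.11, 2.91 and 1.26 (adjusted p = 0.0358, 1.41e-17 and 0.00789 from limma), although 1 of the 9 passed when A01 or A02 was left out. The other luminal markers tested did not pass FDR 5%. KRT18, EPCAM and KRT7 differed by 0.85, 0.78 and 0.31, and ESR1, FOXA1 and ELF3 by -0.43, -0.18 and -0.14 with overlapping arrays. ESR1 lay above the limit of the negative controls on only 2 of the 5 arrays. GATA3, removed as invariant, differed by 0.18 in limma without a filter. The summed log2 value of the luminal list was 63.0 to 63.5 on A01 and A02 and 68.9 to 70.7 on the B arrays. That of the myoepithelial and basal list was 85.8 to 85.9 and 100.5 to 102.3.

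Of 10 smooth muscle and pericyte markers, of which MYH11, DES, LMOD1, SYNPO2 and SMTN are also among the partners, 9 were tested and 0 passed FDR 5% in limma (0 at an unadjusted p under 0.05 and 1 with the trend option, SMTN, which is also 1 of the 8 partners that passed there). MYH11, the myosin heavy chain that defines smooth muscle, lay under the limit of the negative controls on all 5 arrays, as did RGS5, CSPG4 and PDGFRB. SYNPO2, the one of the list that differed most, read 3.12 on A01 and was under that limit on the other 4 arrays (fitted difference -0.57, adjusted p = 0.665 from limma). The summed log2 value of this list was 32.4 to 34.1 on A01 and A02 and 31.6 to 33.8 on the B arrays. Of 10 fibroblast markers 5 were tested and 3 passed FDR 5%, against 1.20% of all probe sets tested in either direction. FAP rose by 1.18 and DCN, under the limit on B03, fell by 2.15 (adjusted p = 0.0175 and 3.88e-09 from limma), and COL6A3, under the limit of the negative controls on all 3 MCF10.AT1-R arrays, fell by at least 0.49 on the log2 scale against that limit, with an adjusted p of 0.00348 from limma for its fitted values. When A01 or A02 was left out, 1 of the 5 passed. PDGFRA and THY1, the others tested, differed by -0.01 and 0.17 with overlapping arrays. The collagens COL1A1, COL1A2 and COL3A1, removed as invariant, lay above the limit of the negative controls on all 5 arrays. They differed by 0.15, 0.13 and -0.16 in limma without a filter, with overlapping arrays. LUM and PDGFRB lay under that limit on all 5 arrays. The summed log2 value of the fibroblast list was 44.3 to 44.4 on A01 and A02 and 40.7 to 44.0 on the B arrays. In bulk RNA a larger share of cells that express a gene and more RNA of that gene per cell cannot be told apart. Both lines are cultured epithelial cells, and the part of subpopulations within them in the rise of TAGLN and TPM1 was not tested beyond these values.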

How the data were processed

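RNA of MCF10.AT1 and MCF10.AT1-R (3 Clariom D arrays each) was profiled by the study. The deposited log2 values were made by the authors with RMA (packages affy and oligo) and hold 138745 rows, without the study's filter on low and invariant genes. The 2995 control probe sets were left out here. The genome build of the probe sets is not given in the sources used here. The array names were tied to the lines through the study's principal component plot.

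A probe set entered the test if, over A01, A02, B02, B03 and B04, its mean exceeded the median (1.88) and its SD the lowest 25% of SDs (0.18), limits chosen here since the methods name none. The model was limma's (version 3.58.1, R 4.3.3; lmFit, then eBayes), and the code was tested on simulated data. Genes outside the filters take their values from limma without filters. Where a symbol has several probe sets, the one with the highest mean was used. Pairs of relatives were compared by exact permutation over arrays. Lists were described by counts and medians, without a set test. Named are the 10 genes, every gene of a list past FDR 5% or else the one with the largest difference among those tested, and the 3 profiles closest to the leading gene, while other genes were picked after their values were seen. A list of upstream regulators and a marker gene are not reported here. The genes and lists were chosen with earlier results of these data known. Alternatives changed the arrays, array weights, variance model, filters, normalization, a floor at the negative controls and the handling of several probe sets. One of them, the trend option combined with a filter on low values only, was added after the data were examined. P-values rest on the spread between cultures of 1 derivation per line. In the main fit from limma this was the common SD of 0.34, not the spread of each gene. Promoter sequences are from RefSeq, build GRCh38.p14.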

Additional observations from a re-analysis of the deposited data

Results flagged for a closer look

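ACTA2 and ACTG2 were set apart because A03, which no comparison uses, read above both of the other MCF10.AT1 arrays for these 2 genes. ACTA2 read 4.70 on A03, against 4.21 on A01 and 3.96 on A02, and ACTG2 read 4.10, against 3.84 and 3.73. For 7 of the 10 genes A03 lay below both A01 and A02, and the median of A03 minus the mean of A01 and A02 over the 10 genes was -1.55. The cause was not tested.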

How the results depend on the processing

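The log2 differences of the 10 genes were computed under 16 alternatives each, and of these 160 values 144 kept their direction and side of the threshold. With A03 added, the differences of CNN1 (0.43) and TPM2 (1.12) changed sign, and leaving out 1 array at a time moved that of CNN1 from -0.30 to 0.013, the latter without B04. In the order of all probe sets, the 10 genes, contractile partners, SRF targets, basal, luminal, smooth muscle and fibroblast genes, 620, 2, 0, 2, 6, 3, 0 and 3 passed FDR 5%. With A03 added 26 probe sets passed, with 0 of the 10 genes, 0 SRF targets, 1 basal, 0 luminal and 0 fibroblast genes. With the trend option 1377 passed, with 4 of the 10 genes, 8 partners, 4 SRF targets, 6 luminal and 1 smooth muscle gene. With a filter on low values only 182 passed and without any filter 177, each with 1 of the 10 genes, 1 SRF target, 1 luminal and 1 fibroblast gene. With that filter and the trend option 1086 passed, with 4 of the 10 genes, 8 partners, 6 luminal and 1 smooth muscle gene. With a floor at the negative controls 272 passed, with 0 of the 10 genes. Leaving out 1 array at a time gave 271 (without A02) to 595 probe sets, with 314 without A01, 1 to 2 of the 10 genes, 0 to 2 SRF targets, 1 to 3 luminal and 1 to 3 fibroblast genes, and a lone A array was taken to have the spread of the B arrays. The differences between the changes of relatives kept their direction in every setting run. The cause of these shifts was not tested. No paired analysis was possible because the array names carry no replicate numbers of the labels.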

Other observations

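Transcripts named after the genes described above, picked by name after the data were examined, were read for comparison. The antisense transcripts MYLK-AS1, MYLK-AS2 and ACTA2-AS1 differed between the lines by 0.07, -0.04 and -0.03 with overlapping arrays. The kinase pseudogene MYLKP1 lay under the limit of the negative controls on all 5 arrays. Among the CNN2 pseudogenes, CNN2P6 averaged 5.11 on A01 and A02 and 5.74 on the B arrays, a log2 difference of 0.63 without overlap (adjusted p = 0.567 from limma). CNN2P9 differed by 0.32, also without overlap, and CNN2P10, CNN2P3 and CNN2P1 by -0.05, 0.00 and -0.17 with overlap, all 4 of them not past FDR 5%. The other 6 CNN2 pseudogenes lay under the limit of the negative controls on all 5 arrays.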
